A study of Homo sapiens with 4 samples.

Results

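Lewis antigens are fucosylated, and often sialylated, sugar chains at the ends of glycoproteins and glycolipids of epithelia. Here 10 glycosyltransferase genes that build or compete for them were read in LoVo cells. They were chosen by name, with earlier results of these data known: FUT2, FUT3, FUT4, FUT6, FUT8, ST3GAL4, ST3GAL6, ST6GALNAC1, B3GNT3 and B3GALT5. They are 10 of the 58825 genes counted, and all 10 were present in the annotation.

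LoVo is an established line from a human colorectal adenocarcinoma that carries an uncleaved MET receptor, active without its ligand. RNA was sequenced from the 3' end in 4 libraries, 2 biological replicates of MET+ cells and 2 of MET-KO cells. MET+ cells are labelled as a GFP control with wild-type genotype, and MET-KO cells had MET knocked out with CRISPR/Cas9. Both were grown in the same serum-supplemented medium. The knockout cells were made by transfection of Cas9 and a guide, puromycin selection and picking of single clones chosen by Western blot. The study's methods do not say whether both MET-KO libraries are the same clone, nor whether the control cells went through cloning, so loss of MET and differences between a clone and the control population cannot be told apart. P-values measure the spread between these cultures.

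An antigen of this kind is made in steps by Golgi enzymes, each adding a sugar in a fixed linkage. A B3GNT enzyme and a galactosyltransferase lay down the chain, a sialyltransferase may cap it, and fucosyltransferases add the final fucose. The position of the galactose decides whether fucosylation gives Lewis a and b or Lewis x and y, and a capped chain gives the sialylated forms, of which sialyl Lewis a is the CA19-9 antigen of gastrointestinal tumours and sialyl Lewis x is a ligand of selectins. Some enzymes of the same family can replace each other in part, so levels were read both for each gene and for its family. Whether they did so here was not tested, and a family sum does not show it.

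The promoters of the members on which the results turn are shown first, because the same genes stand apart in level or difference further on. RefSeq listed 17 promoter windows on GRCh38.p14 for 9 of the 10 members. Each runs from 250 bases before to 50 bases after an annotated start, and is given 5' to 3' on the strand of the gene. Capitals mark GGAATG or its reverse complement CATTCC, the core letters bound by TEAD factors, the partners of YAP1. ST3GAL4, the only member that was higher in MET-KO cells, had 3 starts on the plus strand, at chr11:126355762-126356061, chr11:126403166-126403465 and chr11:126405837-126406136. Reads from the 3' end do not tell which start was used.
ST3GAL4 start 1: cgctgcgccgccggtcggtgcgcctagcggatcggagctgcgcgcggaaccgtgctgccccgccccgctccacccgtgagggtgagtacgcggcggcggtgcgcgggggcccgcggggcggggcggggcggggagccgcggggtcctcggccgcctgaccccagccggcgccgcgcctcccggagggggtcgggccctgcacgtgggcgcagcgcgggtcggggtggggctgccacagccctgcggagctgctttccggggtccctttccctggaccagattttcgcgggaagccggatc
ST3GAL4 start 2: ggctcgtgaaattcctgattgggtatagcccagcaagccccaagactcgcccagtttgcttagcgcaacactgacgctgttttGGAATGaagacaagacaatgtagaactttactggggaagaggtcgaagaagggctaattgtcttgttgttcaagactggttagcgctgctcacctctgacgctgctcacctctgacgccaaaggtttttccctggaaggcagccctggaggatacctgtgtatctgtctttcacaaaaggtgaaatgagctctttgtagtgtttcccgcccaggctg
ST3GAL4 start 3: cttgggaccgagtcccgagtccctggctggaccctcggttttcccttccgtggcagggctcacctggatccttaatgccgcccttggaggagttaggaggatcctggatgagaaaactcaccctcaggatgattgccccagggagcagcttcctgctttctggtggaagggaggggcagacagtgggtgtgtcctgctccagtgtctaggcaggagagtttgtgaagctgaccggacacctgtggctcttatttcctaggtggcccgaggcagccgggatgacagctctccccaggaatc

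The next 3 windows belong to FUT4, which held nearly all Lewis-type fucosyltransferase counts (plus strand, chr11:94543671-94543970), to B3GNT3, which fell most among the members counted in every library (plus strand, chr19:17794888-17795187), and to the second start of B3GALT5, the highest member and the only tested one not called (plus strand, chr21:39642146-39642445).
FUT4: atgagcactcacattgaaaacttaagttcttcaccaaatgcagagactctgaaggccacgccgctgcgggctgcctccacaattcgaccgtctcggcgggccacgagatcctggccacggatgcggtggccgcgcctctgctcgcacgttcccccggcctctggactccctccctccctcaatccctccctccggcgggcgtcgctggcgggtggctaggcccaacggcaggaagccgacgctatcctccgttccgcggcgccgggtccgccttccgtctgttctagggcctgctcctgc
B3GNT3: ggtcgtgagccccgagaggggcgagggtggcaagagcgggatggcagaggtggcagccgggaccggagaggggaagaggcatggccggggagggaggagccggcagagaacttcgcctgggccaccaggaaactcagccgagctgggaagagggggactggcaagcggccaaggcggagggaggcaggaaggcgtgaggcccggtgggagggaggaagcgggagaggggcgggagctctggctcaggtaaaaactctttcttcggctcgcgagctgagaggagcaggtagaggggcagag
B3GALT5 start 2: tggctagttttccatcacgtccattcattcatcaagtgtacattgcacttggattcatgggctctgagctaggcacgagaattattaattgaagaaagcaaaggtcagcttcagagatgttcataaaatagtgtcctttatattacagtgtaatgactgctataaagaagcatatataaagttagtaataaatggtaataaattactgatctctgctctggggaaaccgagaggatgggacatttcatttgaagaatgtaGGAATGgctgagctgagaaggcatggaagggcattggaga

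Positions are those of the first matching base, counted from 1 at the start and from -1 before it. GGAATG, read on both strands, was found at position -167 of the second start of ST3GAL4 and position 11 of the second start of B3GALT5. It also lay at position -31 of the first FUT8 start and position -1 of FUT6, windows that are not shown. The first start of B3GALT5, also not shown, held no match to these letters. Of all 35116 RefSeq promoter windows of the same length, 14% hold these letters. TGANTCA, the AP-1 motif, was found at position -162 of the first FUT8 start alone and is held by 7.71% of all windows. CCGGAAG, an ETS motif, was found at position -82 of the second FUT8 start and is held by 10.3%. No match to any of the 3 motifs lay in the windows of FUT2, FUT3, FUT4, B3GNT3 or ST3GAL6. GGAATG thus occurred in members that rose (ST3GAL4), fell (FUT8), did not pass (B3GALT5) and were at 0 (FUT6).

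Total counts per library were 8429142 and 10286552 in MET+ and 10137583 and 10228991 in MET-KO cells. Counts are given as they were, or as CPM, counts scaled to a common library total by TMM, and 3 counts correspond to 0.276 to 0.362 CPM. MET itself had 2794 and 3272 counts in MET+ and 861 and 965 in MET-KO cells, a log2 fold change of -1.96, which cannot show the edit because a 3' count does not read it. Counts on chromosome Y genes summed to 45 to 57 in MET+ and to 7200 to 7330 in MET-KO libraries, a difference on a chromosome other than that of MET. Of 13801 genes tested, 7467 (54.1%) were called in MET-KO against MET+ cells by edgeR's quasi-likelihood test at a Benjamini-Hochberg adjusted p of 0.05. Of the tested genes, 27.2% were called higher and 26.9% lower, and in 75.6% of them the 2 groups did not overlap. The median log2 fold change over all tested genes was 0.01.

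Among the 10 members, 7 passed the filter on low counts and 6 were called, ST3GAL4 as higher and FUT2, FUT4, FUT8, ST6GALNAC1 and B3GNT3 as lower. The share called, 85.7%, stands beside 54.1% of all tested genes, and ST6GALNAC1 passed the filter only through MET+ cells. B3GALT5 was tested and not called, and FUT3, FUT6 and ST3GAL6 were too low to be tested. The groups did not overlap in any of the 7 tested members, nor in 75.6% of all tested genes. The median log2 fold change of the tested members was -1.34. Without MET-KO replicate 1 it was -1.37, and without MET-KO replicate 2, whose removal moved it furthest, it was -1.78.

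**Figure D1:**
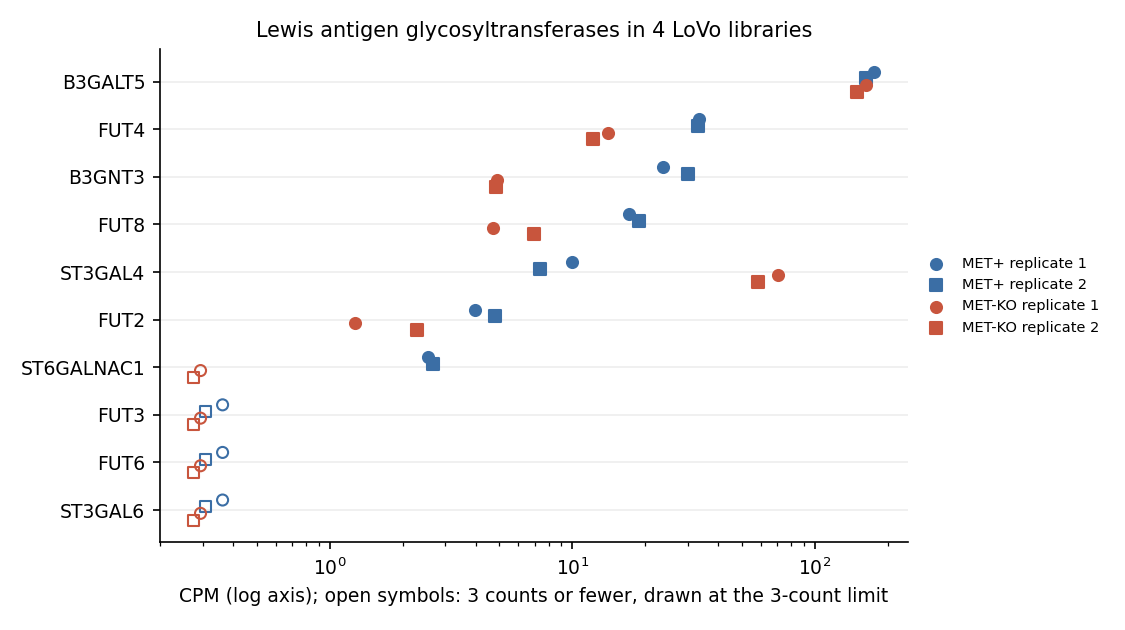
CPM of the 10 members in each of the 4 libraries on a log axis, with MET+ in blue and MET-KO in red, circles for replicate 1 and squares for replicate 2. Open symbols are libraries with 3 counts or fewer, drawn at the level of 3 counts. ST3GAL4 is the only member whose red symbols lie to the right of the blue ones, and B3GALT5 lies at 149.6 to 175 CPM in all libraries.

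The chain-building members behaved differently from each other. B3GALT5 (ENSG00000183778, chr21:39556442-39673137, plus strand) adds the galactose of the type 1 chain, on which Lewis a, Lewis b and CA19-9 are built. It was the highest member, with 1452 and 1590 counts in MET+ libraries and 1660 and 1628 in MET-KO libraries, or 175, 163, 162 and 149.6 CPM. The lowest MET+ library and the highest MET-KO library were separated by less than 1 CPM. Means ± SD of the 2 replicates were 169 ± 8.66 CPM for MET+ and 156 ± 9.10 CPM for MET-KO. This gave a log2 fold change of -0.11 (SE 0.09, 95% interval -0.31 to 0.08, edgeR's quasi-likelihood test, Benjamini-Hochberg adjusted p = 0.312), so a fall larger than 0.31 on the log2 scale lay outside the interval. B3GALT5 made up 99.0% of the counts of the B3GALT family in MET+ and 98.0% in MET-KO cells. B3GALT5-AS1, an antisense transcript inside the locus whose exons do not touch those of B3GALT5, had 54, 46, 79 and 116 counts in the same order of libraries and was called higher (log2 fold change 0.73, edgeR adjusted p = 0.0175).

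B3GNT3 (ENSG00000179913, chr19:17794828-17813082, plus strand) adds N-acetylglucosamine to extend chains on core 1 O-glycans. It had 197 and 293 counts in MET+ and 50 and 53 in MET-KO libraries. Both MET-KO libraries lay far below both MET+ libraries and close to each other. On average MET-KO cells held 4.88 ± 0.0164 CPM against 26.9 ± 4.43 CPM in MET+ cells (SD, n = 2 per group), 5.51-fold less. On the log2 scale the difference was -2.46 (SE 0.20, the same edgeR test, adjusted p = 1.28e-12). The 151 tested genes within 5 Mb of it had a median log2 fold change of -0.02.

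The change in B3GNT3 went along with another order of the enzymes in its family. B3GNT3 held 37.5% ± 2.08 (SD, n = 2) of the summed B3GNT counts in MET+ and 9.98% in MET-KO cells, where its 2 libraries stood at 9.90% and 10.1%. B3GNT2, which extends poly-N-acetyllactosamine chains, held 29.8% ± 1.76 and 60.2% ± 1.34 (SD, n = 2 per group) and rose by 0.47 on the log2 scale (edgeR adjusted p = 0.00606). B3GNT4 and B3GNT5 fell, with log2 fold changes of -0.87 and -0.95. The 98 tested genes within 5 Mb of B3GNT4 had a median of -0.61, and the 62 around B3GNT5 a median of 0.12. The family as a whole came to 71.5 ± 7.83 CPM in the control and 48.9 ± 0.705 CPM in the knockout (SD, n = 2 per group).

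Of the fucosyltransferases, FUT4 alone provided a measurable level of the Lewis-type enzymes, those that put fucose on the N-acetylglucosamine of the chain. FUT4 (ENSG00000196371, chr11:94543840-94549898, plus strand) works on type 2 chains and makes Lewis x. It had 276 and 323 counts in MET+ and 143 and 133 in MET-KO libraries. Scaled to CPM, the MET+ libraries were nearly equal, at 33.3 and 33.1, and both MET-KO libraries were lower, at 14.0 and 12.2.

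FUT4 thus had a log2 fold change of -1.34 (SE 0.15, 95% interval -1.65 to -1.03, the same edgeR test, adjusted p = 4.07e-09), or 2.53-fold lower. The 25 tested genes within 5 Mb had a median of 0.07. PIWIL4, whose exons overlap FUT4 on the same strand, had 25, 47, 30 and 44 counts and did not pass the test (log2 fold change -0.18, adjusted p = 0.697), and AP000943.3, antisense to it, was at 0 in all libraries. FUT4 held 99.5% of the counts over FUT3, FUT4, FUT5, FUT6, FUT7 and FUT9 in MET+ and 99.0% in MET-KO cells, while these genes together summed to 33.4 ± 0.0808 and 13.3 ± 1.46 CPM (SD, n = 2 per group).

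FUT3 (ENSG00000171124, chr19:5842888-5851474, minus strand), the Lewis enzyme that makes Lewis a and sialyl Lewis a, had 1 and 2 counts in MET+ and none in MET-KO libraries. FUT6 (ENSG00000156413, chr19:5830610-5839731, minus strand), which makes Lewis x and sialyl Lewis x, was at 0 in all 4 libraries. FUT5, the third gene of this cluster, was at 0 as well. None of the 3 exceeded the limit of 3 counts in any library, so a change was not detectable at this depth.

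FUT6 and FUT3 lie 3.16 kb apart and FUT3 and FUT5 14.4 kb apart, and their coding sequences are alike, so reads could be lost where they map to several genes. Of the 50-base windows in the last 500 bases of the annotated coding transcripts, 3.38% of those of FUT3, 13.7% of those of FUT6 and 23.5% of those of FUT5 also occur in another gene. All 106 shared windows of FUT5 occur in AC024592.3, a gene on the same strand whose exons overlap FUT5, and 1 of them occurs in FUT3. The other windows of these 3 genes are unique among the annotated transcripts. AC024592.2, antisense to FUT3, had 2 and 4 counts in MET+ and none in MET-KO libraries.

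FUT2 (ENSG00000176920, chr19:48695971-48705950, plus strand) is the secretor enzyme, which makes the H antigen that Lewis b and Lewis y are built on. It had 33 and 47 counts in MET+ and 13 and 25 in MET-KO libraries. The 2 MET-KO libraries differed from each other, at 1.27 and 2.30 CPM, yet both lay below the MET+ libraries, at 3.98 and 4.82 CPM. Its log2 fold change came to -1.29 (SE 0.39, 95% interval -2.09 to -0.50, the same edgeR test, adjusted p = 0.00573). This call rested on MET-KO replicate 1: without it the log2 fold change was -0.94 and the adjusted p was 0.123. FUT1, which makes the same linkage in red blood cells, had 60, 56, 50 and 45 counts and did not pass (log2 fold change -0.52, adjusted p = 0.129). FUT2 held 40.6% ± 7.18 of the counts over FUT1 and FUT2 in MET+ and 28.2% ± 10.7 in MET-KO cells (SD, n = 2 per group), shares that overlap between the groups. SEC1P, the pseudogene that shares 11.8% of the 3' windows of FUT2, had 0, 1, 0 and 0 counts.

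FUT8 (ENSG00000033170, chr14:65410592-65744121, plus strand) does not make Lewis antigens but adds the core fucose of N-glycans from the same GDP-fucose. It had 142 and 184 counts in MET+ and 48 and 76 in MET-KO libraries, with no overlap between the groups. It averaged 18.0 ± 1.22 CPM in the control and 5.84 ± 1.62 CPM in the knockout (SD, n = 2 per group). The fitted difference was -1.62 on the log2 scale (SE 0.21, 95% interval -2.05 to -1.18, the same edgeR test, adjusted p = 8.04e-08). The chromosome around FUT8 was also lower in MET-KO cells: the 52 tested genes within 5 Mb had a median of -0.52 and the 479 tested genes of chromosome 14 a median of -0.51, which leaves FUT8 1.10 below its surroundings on the log2 scale (a difference of -1.10). What part of the fall belongs to the chromosome was not tested. FUT8-AS1, antisense to FUT8, had 8, 3, 7 and 4 counts.

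The sialyltransferases moved in opposite directions. ST3GAL4 (ENSG00000110080, chr11:126355640-126440344, plus strand) caps the galactose of type 2 chains with sialic acid, a step towards sialyl Lewis x. It had 83 and 72 counts in MET+ and 718 and 632 in MET-KO libraries. The lower MET-KO library exceeded the higher MET+ library by far, at 58.1 against 10.0 CPM. The mean rose 7.43-fold (95% interval 5.98 to 9.24), with 8.70 ± 1.86 CPM in the control and 64.2 ± 8.62 CPM in the knockout (SD, n = 2 per group). On the log2 scale this was 2.89 (SE 0.15, the same edgeR test, adjusted p = 2.53e-17). The 45 tested genes within 5 Mb had a median of -0.02. KIRREL3, on the other strand in the same region, had 0, 0, 2 and 9 counts, and its exons do not overlap those of ST3GAL4.

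ST3GAL4 moved from the third to the first place in its family. It held 16.9% ± 4.67 of the ST3GAL counts in MET+ and 46.5% ± 5.11 in MET-KO cells (SD, n = 2 per group), while ST3GAL2 held 41.9% and 26.4% and ST3GAL1 30.9% and 19.9%. The other tested genes of the family were also called higher. Log2 fold changes were 1.49 for ST3GAL3, 0.77 for ST3GAL1, 0.75 for ST3GAL2 and 0.70 for ST3GAL5 (edgeR adjusted p = 0.0131, 0.000105, 2.05e-05 and 0.0377). ST3GAL3 passed the filter on low counts only through MET-KO cells. Over the whole family, 51.8 ± 3.28 CPM in MET+ stood against 138 ± 3.39 CPM in MET-KO cells (SD, n = 2 per group).

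ST3GAL6 (ENSG00000064225, chr3:98732236-98821201, plus strand), another enzyme that caps type 2 chains, was at 0 in all libraries. DCBLD2, whose exons overlap it on the opposite strand, had 1587, 1916, 396 and 376 counts. No read of this strongly counted neighbour was therefore credited to ST3GAL6. Since the strand setting is unknown, the 0 cannot tell absent ST3GAL6 RNA from reads left uncounted in the shared exons.

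ST6GALNAC1 (ENSG00000070526, chr17:76624761-76643838, minus strand) makes sialyl-Tn, a short O-glycan whose sialic acid stops further extension. It had 21 and 26 counts in MET+ and 0 in both MET-KO libraries. Against the limit of 3 counts in each MET-KO library, it was at least 9.13-fold lower (edgeR adjusted p = 4.24e-07). ST6GALNAC4 held 89.7% of the counts of its family in MET+ and 91.3% in MET-KO cells, with a log2 fold change of 0.25 (adjusted p = 0.107), and the family summed to 30.3 ± 2.08 and 35.4 ± 0.841 CPM (SD, n = 2 per group).

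**Figure D2:**
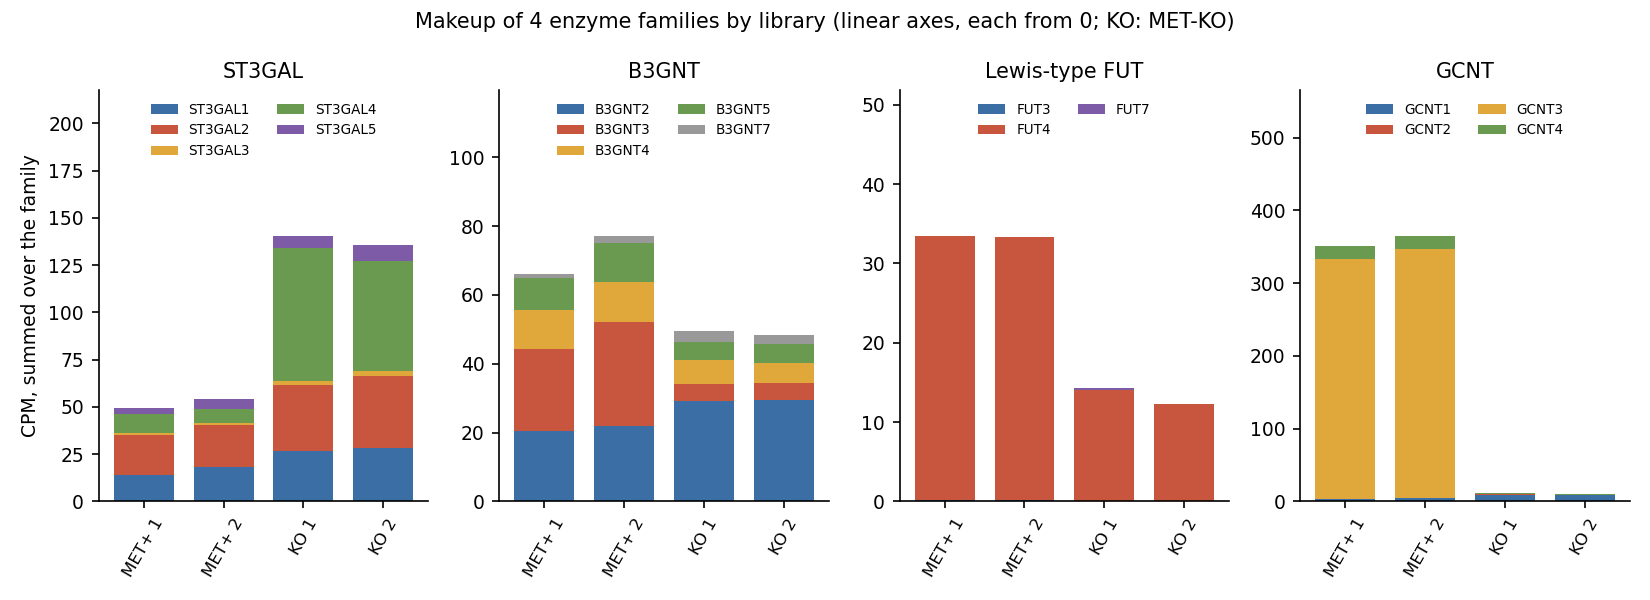
CPM summed over 4 enzyme families in each library, with each gene as a stacked segment. The panels show ST3GAL, B3GNT, Lewis-type fucosyltransferases and GCNT on linear axes with their own ranges from 0, with MET+ libraries at the left and MET-KO libraries (KO) at the right. In the ST3GAL panel the green ST3GAL4 segment grows from 7.38 to 10.0 CPM in MET+ to 58.1 to 70.3 CPM in MET-KO cells, and the GCNT3 segment of the GCNT panel is not visible in the MET-KO bars.

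Because a 3' library yields a single fragment near the end of each transcript, CPM was compared between genes without dividing by length. In MET+ cells the order was B3GALT5, FUT4, B3GNT3, FUT8, ST3GAL4, FUT2, ST6GALNAC1, and each pair of neighbours had separate ranges. In MET-KO cells it was B3GALT5, ST3GAL4, FUT4, FUT8, B3GNT3, FUT2. There FUT8, at 4.70 and 6.98 CPM, and B3GNT3, at 4.89 and 4.87 CPM, overlapped. Summed over the 10 members, the level was 260 to 266 CPM in MET+ and 234 to 258 CPM in MET-KO libraries, most of it B3GALT5.

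The donors and the other enzymes of the pathway were read from 4 lists of 68 genes in all, of which 49 were tested. Of these, 14 were called higher and 13 lower, 55.1% against 54.1% of all tested genes, with a median log2 fold change of -0.04. When libraries were scaled by their totals alone, 19 were called higher and 10 lower. The rates of calling in the lists as a whole were thus near that of the background.

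In the list of fucose handling and other fucosyltransferases, 13 of 16 genes were tested, with 2 called higher and 4 lower. The share called was 46.2%, against 54.1% of all tested genes. GMDS, the enzyme that starts GDP-fucose synthesis from GDP-mannose, had 52.6 and 52.0 CPM in MET+ and 27.0 and 22.9 CPM in MET-KO libraries. It fell, with no overlap between groups (log2 fold change -1.07, SE 0.13, edgeR adjusted p = 7.42e-09). SLC35C1, the Golgi GDP-fucose transporter, fell by 0.53 on the log2 scale (adjusted p = 0.00181), and FUT11 fell, with 236, 285, 153 and 132 counts (log2 fold change -1.09, adjusted p = 5.29e-07). TSTA3 (GFUS), the next enzyme after GMDS, did not pass, at -0.28 (adjusted p = 0.0589). The 2 higher genes both remove fucose: FUCA1, the lysosomal fucosidase, at 1.13 (adjusted p = 8.37e-10), and its secreted relative FUCA2, at 0.25 (adjusted p = 0.0479). The FUCA2 value lay below the median of the 26 tested genes within 5 Mb of it, 0.42.

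In the list of sialic acid handling and other sialyltransferases, 14 of 25 genes were tested, with 7 called higher and 0 lower by edgeR. The share called, 50%, stands beside 54.1% of all tested genes, with 27.2% called higher and 26.9% lower. This list leaves out the members, of which ST3GAL4 was called higher and ST6GALNAC1 lower. At an unadjusted p under 0.05, 0 of the tested genes of the list were lower, and DESeq2's Wald test called 0 lower as well. Both readings use the same libraries and the same filtered genes, so they are not separate support. Among the genes too low to be tested, ST8SIA6 had 4, 8, 0 and 0 counts and NEU4 had 0, 1, 7 and 4. GNE, the enzyme that controls the first step of sialic acid synthesis, had 83 and 88 counts in MET+ and 641 and 677 in MET-KO libraries. Averages were 9.52 ± 0.704 and 62.5 ± 0.370 CPM (SD, n = 2 per group), and the log2 difference was 2.72 (SE 0.14, edgeR adjusted p = 1.16e-17). This was close in size to ST3GAL4, at 2.89. CMAS, which makes CMP-sialic acid, rose by 0.45 (adjusted p = 0.001), whereas NANS, NANP and the Golgi transporter SLC35A1 did not pass, at -0.11, -0.20 and -0.16. ST6GALNAC3 had 4, 0, 35 and 28 counts and rose (log2 fold change 3.67, adjusted p = 2.90e-05), but it passed the filter only through MET-KO cells. Its fitted value depended on the MET+ library with 4 counts, since it was 7.95 without MET+ replicate 1 and 2.60 without MET+ replicate 2. ST3GAL3 had 5, 11, 21 and 32 counts, with a log2 fold change of 1.49 (adjusted p = 0.0131). It also passed the filter only through MET-KO cells. Its call was lost without MET+ replicate 1 (1.15) and without MET-KO replicate 2 (1.21).

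In the list of chain building and branching, 20 of 24 genes were tested, with 5 called higher and 7 lower. The share called was 60%, against 54.1% of all tested genes. The largest change among the 49 tested pathway genes was that of a branching enzyme. GCNT3, which makes core 2 and core 4 branches of mucin O-glycans, had 2731 and 3338 counts in MET+ and 0 and 1 in MET-KO libraries. It passed the filter on low counts only through MET+ cells. The ratio of CPM-scaled counts was 7096 with a 95% counting interval of 1273 to 280321, and the adjusted p from edgeR was 1.98e-29. The size of this ratio rested on the single count in MET-KO replicate 2: the fitted log2 fold change was -12.45, but -14.63 without that library and -11.64 without MET-KO replicate 1. GCNT4 fell as well, with 145, 169, 18 and 11 counts (log2 fold change -3.65, adjusted p = 4.62e-13, against a median of -0.47 over the 47 tested genes within 5 Mb), while GCNT1, at 25, 46, 95 and 93 counts, rose (1.19 on the log2 scale, adjusted p = 0.000472). The GCNT family summed to 351 and 364 CPM in MET+ and to 11.3 and 9.74 CPM in MET-KO libraries, and its leading gene was GCNT3 with 93.9% in MET+ and GCNT1 with 85.2% in MET-KO cells.

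SLC35A3, the Golgi transporter of UDP-N-acetylglucosamine, fell, with 362, 365, 202 and 235 counts (log2 fold change -0.97, edgeR adjusted p = 3.01e-07). B4GALT6, a galactosyltransferase of lactosylceramide synthesis, rose, with 41, 28, 127 and 142 counts (log2 fold change 1.72, adjusted p = 7.41e-07). B3GALT2 had 0, 0, 14 and 18 counts and was at least 4.52-fold higher (adjusted p = 2.96e-05), but it passed the filter only through MET-KO cells. In the list of other blood group transferases, 2 of 3 genes were tested, and B4GALNT2 was at 0 in all libraries. The tested genes, ABO and A4GALT, were both called lower, at -0.57 and -0.36 (edgeR adjusted p = 0.00685 and 0.0486). The share called was 100%, against 54.1% of all tested genes, of which 26.9% were called lower. The ABO call was lost with DESeq2's Wald test (log2 fold change -0.57) and without MET+ replicate 2, where the log2 fold change was -0.19.

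**Figure D3:**
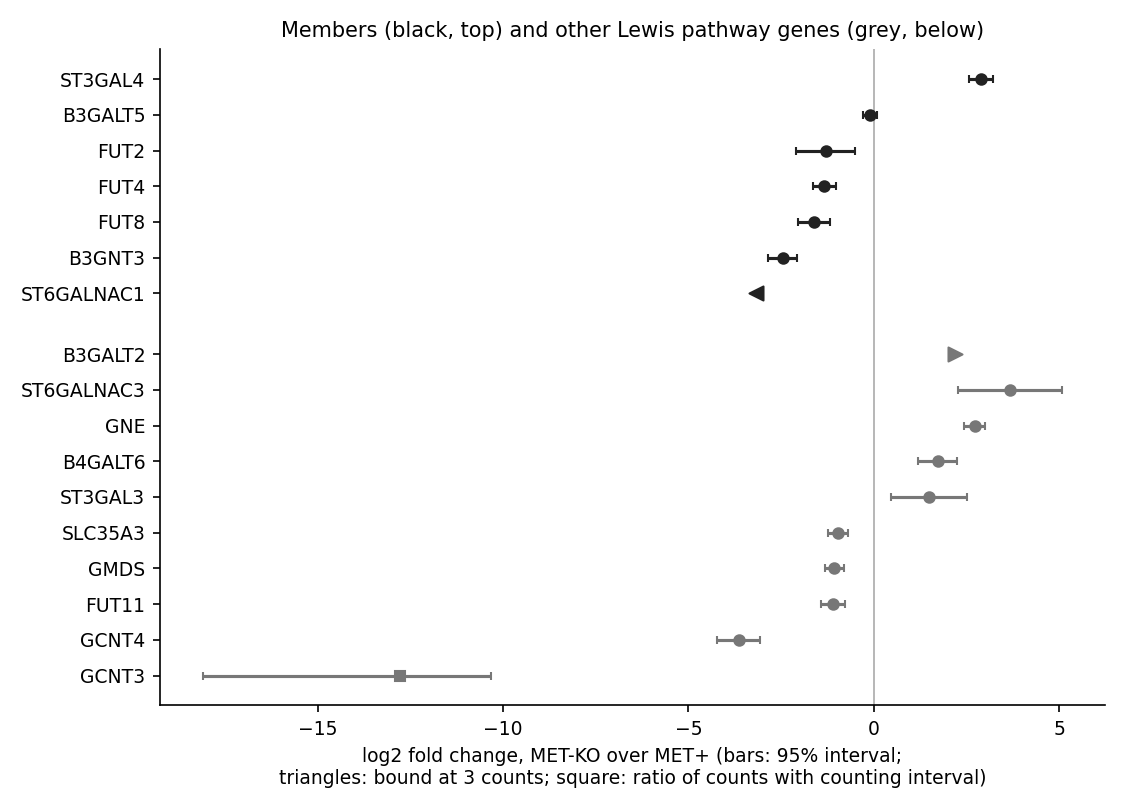
Log2 fold changes of MET-KO over MET+ cells for the 7 tested members (black) and for 10 other pathway genes named by a fixed rule of size (grey). Circles are edgeR estimates with 95% intervals, triangles are bounds for genes at 0 in a group, and the square is the ratio of counts for GCNT3 with its counting interval. The interval of B3GALT5, -0.31 to 0.08, is the only one of a member that crosses 0.

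Since several of these enzymes belong to colon epithelium, its markers were read in the same libraries. Of 13 markers, 12 were tested, 2 were called higher (KRT20 and CDX2) and 9 lower. The share called, 91.7%, stands beside 54.1% of all tested genes, of which 26.9% were called lower. CEACAM5, CDH17, GPA33, VIL1 and LGALS4 passed the filter on low counts only through MET+ cells, and KRT20 only through MET-KO cells. CEACAM5, CDH17 and GPA33 had 392 and 487, 212 and 229, and 35 and 39 counts in MET+ libraries and 0 in both MET-KO libraries. VIL1 had 43, 58, 3 and 3 counts and LGALS4 had 89, 107, 1 and 1, whereas KRT20 had 0, 0, 27 and 28. The broad epithelial genes changed less: EPCAM had a log2 fold change of -1.11 and CDH1 of -0.88, and KRT8 did not pass (-0.19, edgeR adjusted p = 0.0920). CDX1 was at 0 in all libraries. The summed level of the list was 9716 and 9751 CPM in MET+ and 8306 and 7322 CPM in MET-KO libraries. The label of an epithelial line held in all 4 libraries by EPCAM, CDH1, KRT8, KRT18 and KRT19, whereas CEACAM5, CDH17 and GPA33 were not detected in MET-KO cells at this depth. The part of this change in the members' changes was not tested, and in bulk RNA fewer cells that express a gene cannot be told apart from less RNA in each cell.

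Markers of other cell types were low. Of 6 fibroblast and mesenchymal markers, 3 were tested, with sums of 17.5 and 22.3 CPM in MET+ and 4.01 and 4.59 CPM in MET-KO libraries. VIM had 127, 202, 4 and 5 counts and passed the filter on low counts only through MET+ cells. COL3A1 rose with 4, 5, 24 and 26 counts, but it passed the filter only through MET-KO cells. COL1A2 and DCN were at 0. The 4 leukocyte markers summed to 0.685 to 1.95 CPM and the 3 endothelial markers to at most 0.922 CPM.

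**Figure D4:**
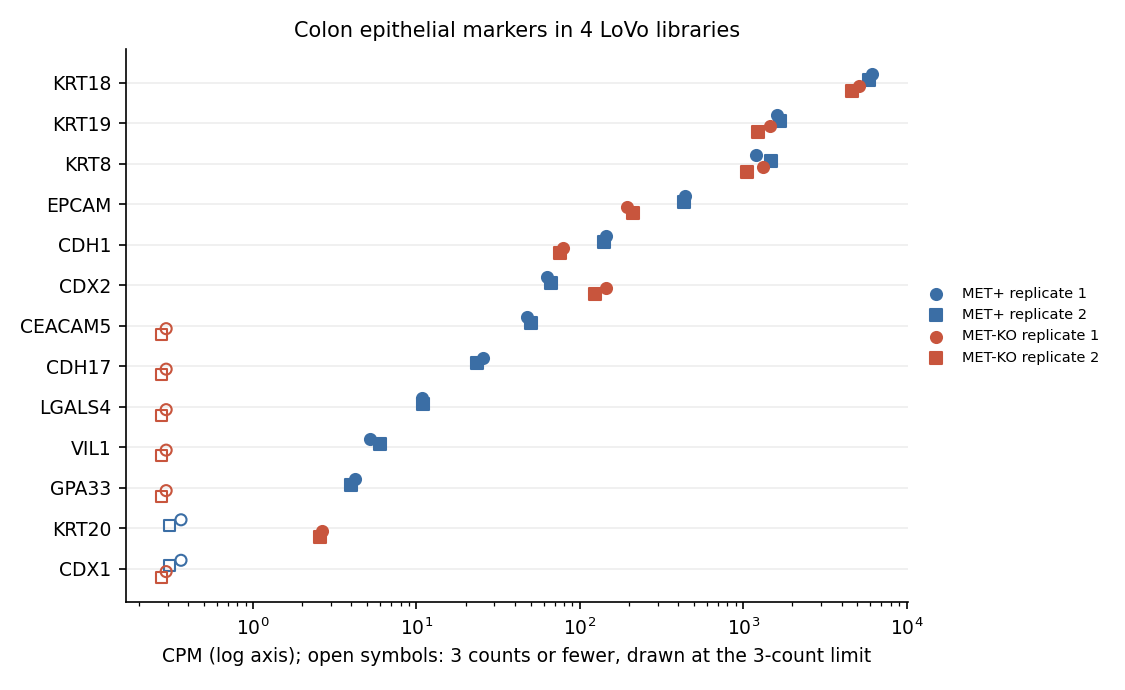
CPM of 13 colon epithelial markers in each library on a log axis, with MET+ in blue and MET-KO in red. Open symbols are libraries with 3 counts or fewer, drawn at the level of 3 counts. KRT8, KRT18, KRT19, EPCAM and CDH1 are present in all 4 libraries, and CEACAM5, CDH17, LGALS4, VIL1 and GPA33 have open symbols in MET-KO cells.

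The members' fold changes kept their direction under all 10 other settings in which they could be fitted. B3GALT5 came closest to 0, at -0.02 with libraries scaled by their totals alone. Leaving out a single library moved ST3GAL4 between 2.68 and 3.13, B3GNT3 between -2.61 and -2.28, FUT4 between -1.44 and -1.24 and FUT8 between -1.93 and -1.37. FUT2 ranged most widely, from -1.78 to -0.94.

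**Figure D5:**
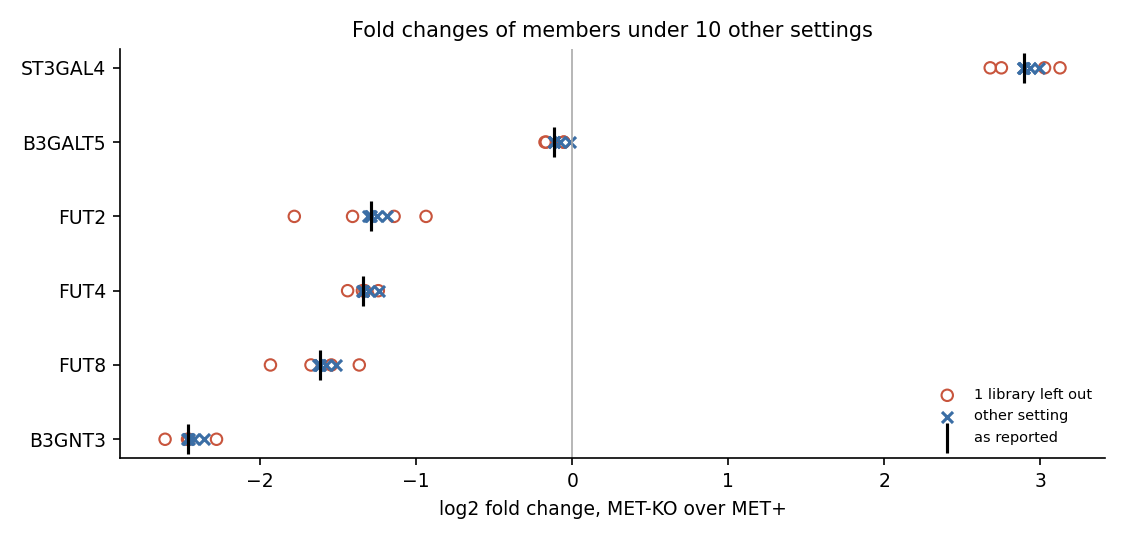
Log2 fold change of 6 members as reported (black bar), with each library left out in turn (red circles) and under 6 other settings of scaling, test, filter and block (blue crosses). ST6GALNAC1 is left out because it was at 0 in MET-KO cells. All points of ST3GAL4 lie above 2.60, and all points of the other 5 members lie below 0.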

How the data were processed

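Reads were counted for each gene in 2 MET+ and 2 MET-KO libraries of LoVo cells, made from total RNA with the QuantSeq 3' FWD kit. The counts are whole numbers as deposited by the authors, without normalization. The submitters' processing notes name bcl2fastq, cutadapt 1.16, FastQC 0.11.7, MultiQC 1.5, STAR 2.5.4a, featureCounts 1.6.2, DESeq2 1.18.1 and the build GRCh38. The annotation release, the strand setting of the counting and the use of molecular identifiers are not given in the sources used here, so antisense and overlapping genes are reported beside the members. Without molecular identifiers, reads are not independent molecules, and counting intervals and limits cover counting error only.

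Each table held 58825 gene rows and 99 spike-in rows, which were at 0 and were left out. Of the gene IDs, 58552 were found in GENCODE version 29, which gave names, positions and overlaps. Genes were tested in R 4.3.3 with edgeR 4.0.16 by the quasi-likelihood test after filterByExpr and TMM scaling, with Benjamini-Hochberg adjustment over all 13801 tested genes and a threshold of 0.05. The test was tried on simulated counts first. With 2 libraries against 2, an exact permutation test of a single gene cannot go below 0.333. For a group at 0, a bound was computed against 3 counts per library. Replicates were separate libraries by their counts (chi-square over its degrees of freedom, 5.45 for MET+ and 4.86 for MET-KO).

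The members and lists were chosen with earlier results of these data known, and the families after values were seen. All 10 members, MET and FUT5 were named, as were the 5 largest positive and 5 largest negative log2 fold changes among called pathway genes whose groups do not overlap and whose higher group has a mean of at least 1 CPM. Other pathway genes, markers and overlapping genes in the text fall outside this rule and were chosen after their values were seen. The alternatives were size factors of DESeq2, library totals alone, the Wald test of DESeq2 1.42.0, a filter of 1 count in all or of 10 counts per library, a replicate block, a minimum absolute log2 fold change of 1, and leaving out each library. Promoter windows came from RefSeq on GRCh38.p14. Figures were drawn with matplotlib 3.10.9.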

Additional observations from a re-analysis of the deposited data

How the results depend on the processing

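Of 195 log2 fold changes of 20 named genes refitted under the alternatives, 189 kept their direction and their side of the threshold, 6 kept their direction and lost the call, and 0 reversed. The 6 were FUT2 without MET-KO replicate 1 (-0.94), ABO with DESeq2's Wald test (-0.57) and without MET+ replicate 2 (-0.19), and ST3GAL3 with DESeq2's Wald test (1.52), without MET+ replicate 1 (1.15) and without MET-KO replicate 2 (1.21). The median log2 fold change of the members was -1.48 with no filter beyond 1 count, where 8 members were tested, and lay between -1.78 and -1.35 when each library was left out. A minimum absolute log2 fold change of 1 left 3355 genes called in all, 2001 higher and 1354 lower, kept 6 members and left 11 other pathway genes, 7 higher and 4 lower. DESeq2's Wald test called 5760 genes in all and 19 pathway genes. Library totals alone raised the median of all tested genes from 0.01 to 0.11 and called 4361 genes higher and 3000 lower. With at least 10 counts in every library 6 members could be tested and 5 were called, since ST6GALNAC1 could not be fitted. Replicate numbers did not pair the libraries: deviations of same-numbered libraries had a correlation of -0.03 across 13801 genes, which are not independent replicates, and with the replicate number as a block 7055 genes, 6 members and 25 pathway genes were called. The cause of these differences was not tested. Depth, at 8429142 to 10286552 counts, limits FUT3, FUT6, ST3GAL6 and ST6GALNAC1, whose values lay at or near 3 counts in at least 1 group.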
